A study of Drosophila melanogaster with 9 samples.

Results

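Transcripts of 4 genes that make or handle ubiquitin were followed in the indirect flight muscle of Drosophila melanogaster: the polyubiquitin genes Ubi-p5E and Ubi-p63E, the segregase gene TER94 and the conjugating enzyme gene Ubc6. They are 4 of the 11982 genes that a probe set of the array names alone. The members are the probe sets whose platform annotation gives 1 of these symbols, which are 5 of the 18952 probe sets on the array, with 2 of them for Ubc6. A 6th probe set is annotated to both Ubi-p5E and CG11700. It is described beside them and not counted as a member.

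Muscle came from 1 to 2 day old adult males of 3 genotypes, raised at 25 °C under 12 h of light and 12 h of dark. Canton-S is a wild-type laboratory strain, Act88FKM88 lacks function of Act88F, which encodes the actin of flight muscle, and Mhc7 carries an allele that leaves flight muscle without myosin heavy chain. Thoraces were kept in cold ethanol before dissection, and each genotype had 3 Affymetrix Drosophila Genome 2.0 arrays, described by the study as independent biological replicates and named here by genotype and number. Each mutant is 1 allele and its genetic background beyond that allele is not stated, so allele and background cannot be told apart. The labels call both lines nulls, and they say nothing of which muscles other than flight muscle are affected.

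Ubiquitin is a small protein that is joined to other proteins to mark them, often for destruction by the proteasome. Polyubiquitin genes encode head-to-tail repeats of ubiquitin that are cut into single molecules, while RpL40 and RpS27A encode ubiquitin fused to a ribosomal protein. An E1 enzyme activates ubiquitin, an E2 such as Ubc6 (the fly homologue of yeast RAD6) carries it, and an E3 ligase sets it on the substrate. TER94, the fly homologue of p97/VCP and yeast Cdc48, is a hexameric AAA ATPase that pulls ubiquitinated proteins out of complexes and membranes so that the proteasome can take them. Mutations in the human homologue VCP cause a myopathy, and flies with altered TER94 are used as a model of it.

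All values are the deposited log2 RMA levels, where a difference of 1 is a 2-fold change. RMA is a method that corrects background, normalizes arrays and summarizes the probes of a probe set. Differences come from limma fitted to all 9 arrays and 18769 probe sets, and each stands beside its standard error (3 arrays in every genotype). A probe set is said to have risen or fallen when its Benjamini-Hochberg adjusted p over all probe sets was under 0.1 and its change at least 2-fold, the limits that the study states. Levels of different probe sets are not compared with each other, because probes differ in brightness.

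The 4 genes did not share 1 pattern. On the deposited scale, Ubi-p5E rose in Act88FKM88 alone of the mutants, TER94 rose in Mhc7, the main Ubc6 probe set rose in both, and Ubi-p63E passed in neither. Of these calls, that of TER94 in Mhc7 alone was kept in all 3 rescalings described below. Against Canton-S, 2 of the 5 member probe sets rose in Act88FKM88, where 1.48% of all probe sets did, and 2 rose in Mhc7, where 2.40% did. None fell in either mutant, against 0.330% and 0.389% of all probe sets. Directly between the mutants, 1 member was higher in Act88FKM88 (0.757% of all probe sets were) and 1 was lower (1.03%). The arrays of the genotypes lay wholly apart for 3 members in Act88FKM88 (all higher, as were 9.75% of probe sets, with 10.0% lower), for 2 in Mhc7 (both higher, as were 11.8%, with 10.3% lower), and for 3 between the mutants (1 higher in Act88FKM88, as were 8.07%, and 2 lower, as were 10.1%). Both comparisons with Canton-S use the same 3 Canton-S arrays.

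**Figure D1:**
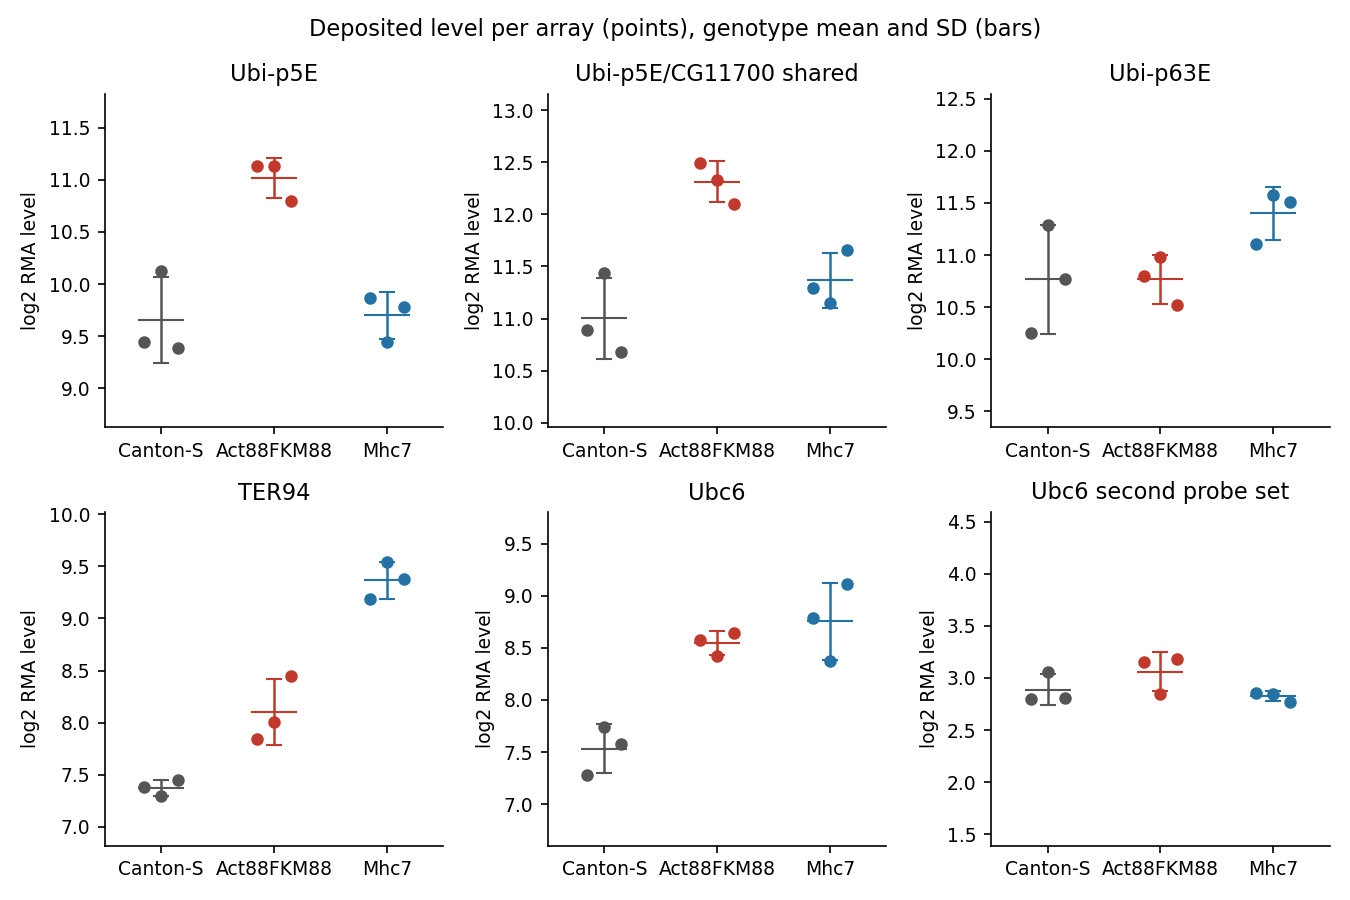
Deposited log2 RMA level of the 6 probe sets in each array, with points for arrays and bars for the mean and SD of each genotype (n = 3). Every panel spans the same number of log2 units, and the Act88FKM88 points for Ubi-p5E (10.80 to 11.13) and the Mhc7 points for TER94 (9.19 to 9.54) lie apart from the other genotypes.

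Ubi-p5E, a polyubiquitin gene, had log2 levels of 9.44, 10.13 and 9.39 in Canton-S 1, 2 and 3. In Act88FKM88 the levels were 11.13, 11.13 and 10.80. In Mhc7 they were 9.87, 9.44 and 9.78. All 3 Act88FKM88 arrays were above the other 6, and the Mhc7 arrays lay inside the Canton-S range. Ubi-p5E rose by 1.36 ± 0.20 in Act88FKM88 (2.57-fold, limma adjusted p = 0.00901), a difference larger than that of 99.1% of probe sets or equal to it. It was also 1.32 ± 0.20 higher in Act88FKM88 than in Mhc7 (limma adjusted p = 0.0129). Mhc7 differed from Canton-S by 0.04 ± 0.20 (limma adjusted p = 0.952). On the deposited scale its 95% interval, from -0.42 to 0.51, leaves out a 2-fold change. In whole muscle, a change in the share of a cell type and a change in RNA per cell cannot be told apart.

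The probe set shared by Ubi-p5E and CG11700 gave a similar picture. CG11700 is another ubiquitin-related gene that lies close to Ubi-p5E on the same chromosome in the RefSeq annotation, so the signal of the pair cannot be split here. Its levels were 10.89, 11.44 and 10.68 in Canton-S, 12.49, 12.33 and 12.10 in Act88FKM88, and 11.29, 11.15 and 11.66 in Mhc7. Again the 3 Act88FKM88 arrays stood above all others. It rose by 1.31 ± 0.21 in Act88FKM88 (limma adjusted p = 0.0113), and the value in Mhc7 was 0.36 ± 0.21 (adjusted p = 0.437). Against Mhc7 it was 0.94 ± 0.21 higher in Act88FKM88, just under 2-fold (limma adjusted p = 0.0511). The 2 probe sets correlated at r = 0.954 over the 9 arrays, which share the genotype differences, and part of their target is the same gene.

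Ubi-p63E, the other polyubiquitin gene, is known in flies for its response to heat and for a role in the testis. Its levels were 10.25, 11.29 and 10.77 in Canton-S, 10.80, 10.98 and 10.52 in Act88FKM88, and 11.11, 11.58 and 11.51 in Mhc7. The Act88FKM88 arrays lay inside the wide Canton-S range, and the Mhc7 arrays overlapped with Canton-S 2 alone. The value in Act88FKM88 was -0.00 ± 0.25 (adjusted p = 0.999), with a 95% interval from -0.56 to 0.56. In Mhc7 it was 0.63 ± 0.25 (unadjusted p = 0.0307, adjusted p = 0.232 in limma), and without Canton-S 1, the lowest array, 0.37. Between the mutants the value was -0.63 ± 0.25 (limma adjusted p = 0.302), and here all 3 Act88FKM88 arrays lay below all 3 Mhc7 arrays, as they did for 10.1% of all probe sets. The 2 polyubiquitin genes therefore had their highest mean in different mutants.

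The remaining ubiquitin genes, RpL40 and RpS27A, did not pass in any comparison. RpL40 had a value of 0.62 ± 0.20 in Act88FKM88 (limma adjusted p = 0.162) and 0.44 ± 0.20 in Mhc7 (adjusted p = 0.295). RpS27A had 0.32 ± 0.15 (adjusted p = 0.393) and 0.28 ± 0.15 (adjusted p = 0.422). For both, every array of either mutant was above every Canton-S array, as for 9.75% of probe sets in Act88FKM88 and 11.8% in Mhc7. Canton-S 1 had the lowest level of both, 10.23 for RpL40 and 11.71 for RpS27A. Of the 4 ubiquitin genes, then, 1 rose in Act88FKM88, where 1.48% of all probe sets did, and 0 in Mhc7, where 2.40% did. That call, of Ubi-p5E, was lost in each of the rescalings described below. The medians of the 4 were 0.47 and 0.36, beside -0.03 and -0.01 over all probe sets.

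TER94 had levels of 7.38, 7.30 and 7.45 in Canton-S, the narrowest spread of any member with a level well above the array median. In Act88FKM88 they were 7.84, 8.01 and 8.45, and in Mhc7 9.19, 9.54 and 9.38. The 3 genotypes did not overlap, with Act88FKM88 between Canton-S and Mhc7. TER94 rose by 1.99 ± 0.16 in Mhc7, close to 4-fold (3.98-fold, limma adjusted p = 0.000416), a difference at or above that of 99.7% of probe sets. In Act88FKM88 the value was 0.73 ± 0.16, or 1.65-fold, under the 2-fold limit (limma adjusted p = 0.0417). TER94 was 1.27 lower in Act88FKM88 than in Mhc7 (-1.27 ± 0.16, limma adjusted p = 0.00466), so the size of the response differed between the mutants by the direct test.

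Ubc6 is measured by 2 probe sets that disagree. The brighter had levels of 7.28, 7.74 and 7.58 in Canton-S, 8.57, 8.42 and 8.64 in Act88FKM88, and 8.79, 8.37 and 9.11 in Mhc7. Both mutants lay wholly above Canton-S and overlapped with each other. It rose by 1.01 ± 0.19 in Act88FKM88, at the 2-fold limit itself (limma adjusted p = 0.0228), and by 1.22 ± 0.19 in Mhc7 (2.33-fold, limma adjusted p = 0.00582). The call in Act88FKM88 was lost without Canton-S 1 (0.88), Act88FKM88 1 (1.00, just short of 2-fold) or Act88FKM88 3 (0.96). Between the mutants the value was -0.21 ± 0.19 (adjusted p = 0.719), with a 95% interval from -0.63 to 0.21.

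The dimmer Ubc6 probe set ranged from 2.77 to 3.18 over the 9 arrays, around the array medians of 3.05 to 3.12, where most probe sets carry little signal. Its values were 0.17 ± 0.11 in Act88FKM88 (limma adjusted p = 0.559) and -0.06 ± 0.11 in Mhc7 (adjusted p = 0.866). Its 3 genotypes overlapped. Which part of the gene each probe set reads was not determined, so the rise of Ubc6 rests on 1 probe set.

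The scale of the arrays bears on every comparison with Canton-S. The 95th percentile of the arrays was 7.26 to 7.47 in Canton-S, 7.57 to 7.96 in Act88FKM88 and 7.77 to 8.15 in Mhc7, so bright probe sets as a whole were lower in Canton-S. Each comparison was therefore repeated with quantile normalization of the deposited values, with each array's intensity trend removed by loess, and with arrays centred on 27 genes of the cytosolic ribosome. All 27 were themselves higher in both mutants by their means (medians 0.45 in Act88FKM88 and 0.41 in Mhc7), though 0 passed the threshold. The centring therefore shifted the median of all differences by -0.46 in Act88FKM88 and -0.42 in Mhc7. Relative to the deposited scale, all 3 lowered the 4 genes in both mutants, with Ubc6 taken by its brighter probe set. The dimmer one was slightly higher with quantile normalization repeated and with the trend removed (0.21 and 0.22 in Act88FKM88, -0.03 and -0.02 in Mhc7).

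**Figure D2:**
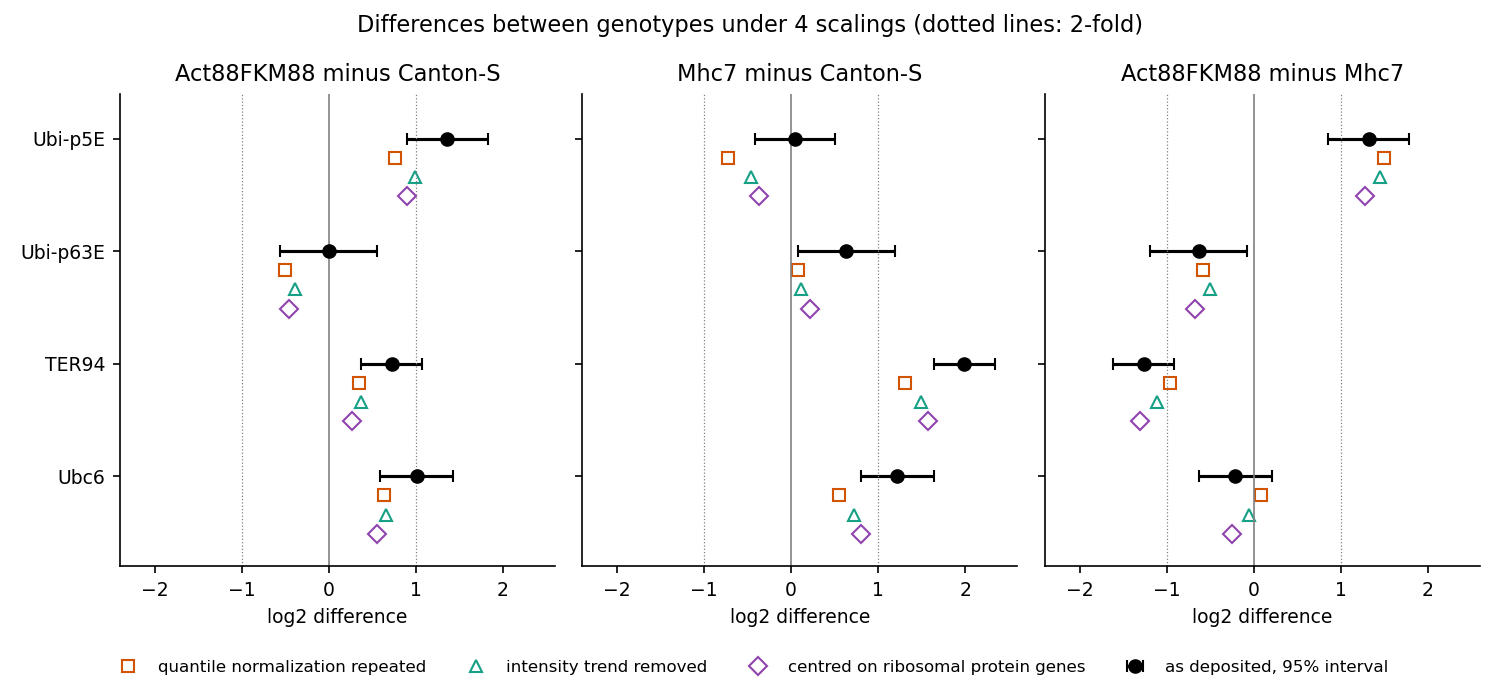
Log2 differences of the 4 genes (Ubc6 by its brighter probe set) in the 3 comparisons. Black points are the deposited scale with the 95% interval from limma, open symbols are the rescaled values, and dotted lines mark 2-fold. In the comparisons with Canton-S all open symbols lie left of the black points, while between the mutants Ubi-p5E stays from 1.279 to 1.496.

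After rescaling, TER94 still rose in Mhc7, by 1.31 with quantile normalization, 1.49 with the trend removed and 1.58 with centring (limma adjusted p up to 0.00914). Ubi-p5E in Act88FKM88 dropped under 2-fold in all 3, to 0.77 (limma adjusted p = 0.120), 0.996 (adjusted p = 0.0348) and 0.91 (adjusted p = 0.029). In Mhc7 its value turned negative in all 3, from -0.73 to -0.37, none past the threshold. Ubc6 lost its calls in both mutants, with values from 0.55 to 0.66 in Act88FKM88 and from 0.55 to 0.80 in Mhc7. For Ubi-p63E the values moved to between -0.51 and -0.38 in Act88FKM88 and to between 0.08 and 0.22 in Mhc7.

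The contrast between the mutants depended less on the scale. Ubi-p5E was higher in Act88FKM88 than in Mhc7 by 1.279 to 1.496 under the 3 rescalings and passed in each. TER94 was lower in Act88FKM88 by the same test with the trend removed (-1.11) and with centring (-1.31), and reached -0.96 with quantile normalization, under 2-fold (limma adjusted p = 0.0352). In the 9 fits that left out 1 array, both kept these calls, at 1.19 to 1.43 for Ubi-p5E and -1.44 to -1.14 for TER94.

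A ratio of 2 genes within an array does not depend on how that array is centred, so all 6 ratios among the 4 genes were taken as well. They use the deposited values, and can still change with quantile normalization or removal of the trend. Each of the 18 comparisons used the two-sided exact permutation test of 3 against 3 arrays, whose smallest p is 0.1, so none could reach 0.05 (adjusted over the 18, at least 0.18). The ratio of Ubi-p5E to Ubi-p63E was 1.37 log2 units higher in Act88FKM88 than in Canton-S (exact p = 0.1), and 1.95 higher than in Mhc7 (exact p = 0.1). In both cases the arrays did not overlap. The Mhc7 ratio was 0.59 below that of Canton-S by its mean (-0.59, exact p = 0.2), and the arrays overlapped.

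The ratio of Ubi-p5E to TER94 was 0.64 in Act88FKM88 relative to Canton-S, with overlapping arrays (exact p = 0.2). It was -1.95 in Mhc7 relative to Canton-S (exact p = 0.1), and 2.59 higher in Act88FKM88 than in Mhc7 (exact p = 0.1), a 6.01-fold shift in the balance of the 2 transcripts between the mutants. TER94 over Ubc6 was 0.77 higher in Mhc7 than in Canton-S (exact p = 0.1) and -0.28 in Act88FKM88 (exact p = 0.3). Ubi-p63E over Ubc6 was -1.01 in Act88FKM88 (exact p = 0.1) and -0.59 in Mhc7 (exact p = 0.3).

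**Figure D3:**
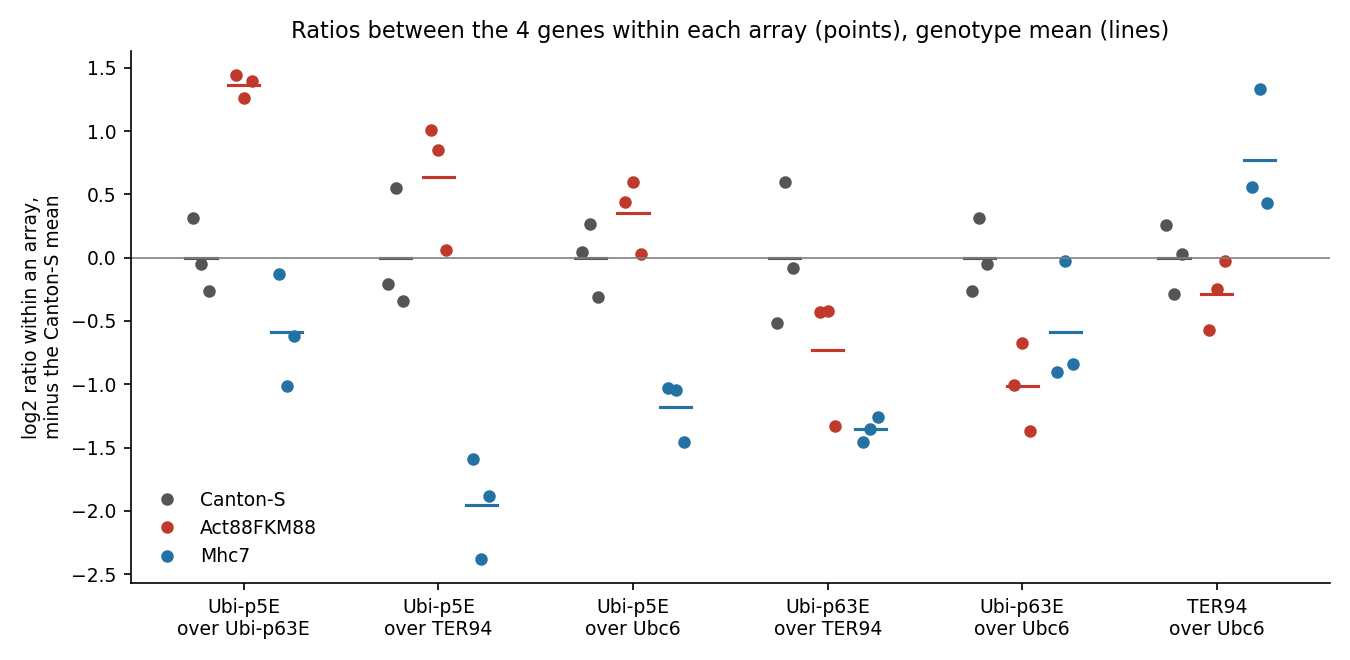
Log2 ratio of each pair of the 4 genes within each array, minus the mean of the 3 Canton-S arrays. Points are arrays and short lines genotype means. For Ubi-p5E over Ubi-p63E the Act88FKM88 arrays lie on average 1.37 above Canton-S, and for Ubi-p5E over TER94 the Mhc7 arrays lie 1.95 below.

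The genes whose levels ran most like each member were taken from 1499 probe sets with 1 named gene and a mean level of at least 6, by Pearson r over the 9 arrays. Closest to Ubi-p5E were CG1640 (r = 0.98), Nt5a (r = 0.966) and cact, the fly inhibitor of NF-kappaB factors (r = 0.966). Closest to Ubi-p63E were the glycolytic gene Pgk (r = 0.95), the translation initiation factor gene eIF3m (r = 0.941) and und (r = 0.925). TER94 ran most like Rab39 (r = 0.975), a Rab GTPase gene, and the proteasome genes Prosbeta6 (r = 0.973) and Rpn6 (r = 0.969). For Ubc6 the closest were Asph (r = 0.979), CG2076 (r = 0.967) and the copper chaperone gene Cox17 (r = 0.966). These are the highest of many correlations over the same 9 arrays, in 3 genotypes, and are given as a description.

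Other genes of the pathway were taken from lists written by symbol. Beside each count below stand the shares over all probe sets. These were 1.48% higher and 0.330% lower in Act88FKM88, and 2.40% higher and 0.389% lower in Mhc7. Directly between the mutants 0.757% were higher in Act88FKM88 and 1.03% lower. Of 20 measured E2 genes, Ubc6 was the 1 that rose in either mutant, and none fell, with list medians of 0.08 in Act88FKM88 and 0.22 in Mhc7. Other E2 genes had differences from -0.28 to 0.52 in Act88FKM88 and from -0.23 to 0.81 in Mhc7. Of 5 measured E1 genes none passed, with the nearest being Aos1, a subunit of the SUMO-activating enzyme (0.84 ± 0.20 in Mhc7, limma adjusted p = 0.0479), and Uba3, of the NEDD8-activating enzyme (0.63 ± 0.16 in Act88FKM88, adjusted p = 0.0845, and 0.67 ± 0.16 in Mhc7, adjusted p = 0.0549). Next in Act88FKM88 was Atg7, the E1 of autophagy (-0.19 ± 0.13, limma adjusted p = 0.570). The ubiquitin E1 gene Uba1 was not analysed here.

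Among 16 measured genes of TER94 cofactors and endoplasmic reticulum-associated degradation, 2 rose in Act88FKM88 and 1 in Mhc7, with medians of 0.15 and 0.35. Ufd1, whose product forms with Npl4 the adaptor that brings ubiquitinated proteins to the segregase, rose by 1.04 ± 0.21 in Act88FKM88 (limma adjusted p = 0.0355) and by 1.23 ± 0.21 in Mhc7 (adjusted p = 0.0111). The cofactor gene Faf2 rose by 1.06 ± 0.17 in Act88FKM88 (limma adjusted p = 0.0142). In Act88FKM88, Ufd1 no longer passed when either of Canton-S 1 and 2 or when Act88FKM88 3 was left out, and Faf2 no longer passed without Act88FKM88 2; both were lost in all 3 rescalings, and that of Ufd1 with SAM and with array weights too. In Mhc7 Ufd1 lost its call with centring alone of the 3. The ligase gene Ufd4 was -1.15 ± 0.18 in Act88FKM88 against Mhc7 (limma adjusted p = 0.0124), the 1 list member that differed between the mutants, and this call ended with quantile normalization repeated and with the intensity trend removed.

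For 11 measured genes linked to RAD6 enzymes in flies or other species, none passed in either mutant (medians 0.24 and 0.02). The histone H2B ubiquitination factor gene Rtf1 had 0.52 ± 0.13 in Act88FKM88 (limma adjusted p = 0.074), and the ligase gene Kcmf1 had 0.49 ± 0.15 (adjusted p = 0.134). In Mhc7 poe, the fly homologue of the ligase UBR4, had 0.65 ± 0.14 (limma adjusted p = 0.0345), and the histone variant gene His2Av had 0.43 ± 0.11 (adjusted p = 0.0565). No gene of this list reached 2-fold.

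The proteasome is where the marked proteins are degraded, and 14 of its 28 measured subunit genes rose in Act88FKM88 (median 1.03) and 27 in Mhc7 (median 1.69). In Mhc7 the exception was Rpt3R, a testis-expressed paralogue. Prosbeta4 of the core particle rose by 1.96 ± 0.27 and 2.82 ± 0.27 (limma adjusted p = 0.00629 and 0.00115), and Sem1 of the lid by 1.72 ± 0.19 and 1.96 ± 0.19 (adjusted p = 0.00271 and 0.00115). Rpn7 of the lid rose by 1.02 ± 0.17 and 1.72 ± 0.17 (limma adjusted p = 0.0146 and 0.00116), and its Act88FKM88 call ended without Canton-S 2 or Act88FKM88 3, in all 3 rescalings and with array weights. Prosbeta7 of the core rose by 1.12 ± 0.19 in Act88FKM88 (limma adjusted p = 0.0171), a call that ended without Act88FKM88 3, in all 3 rescalings and with SAM. The lid gene Rpn6 rose by 1.73 ± 0.19 in Mhc7 (limma adjusted p = 0.00154). The count of proteasome subunits in Act88FKM88 came to 7 when Canton-S 1 was left out, to 6 for Canton-S 2 or Act88FKM88 3, to 3 or 4 in the 3 rescalings and to 4 with SAM. In Mhc7 it was 24 to 27 in the fits that left out an array, and 14 with quantile normalization repeated, 20 with the trend removed and 25 with centring. Between the mutants 1 subunit gene, Rpt4, was lower in Act88FKM88 (-1.04 ± 0.25, limma adjusted p = 0.0769). Rpt4 no longer passed in 7 of the 9 fits that left out an array, all but those without Canton-S 3 or Act88FKM88 3, nor with quantile normalization repeated, the trend removed or the 6 arrays of both mutants alone. The count of lower subunits was 15 without Act88FKM88 3 and 0 to 2 without any other array. TER94, at 0.73 and 1.99, lay below the median of the proteasome subunits in Act88FKM88 and above it in Mhc7.

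**Figure D4:**
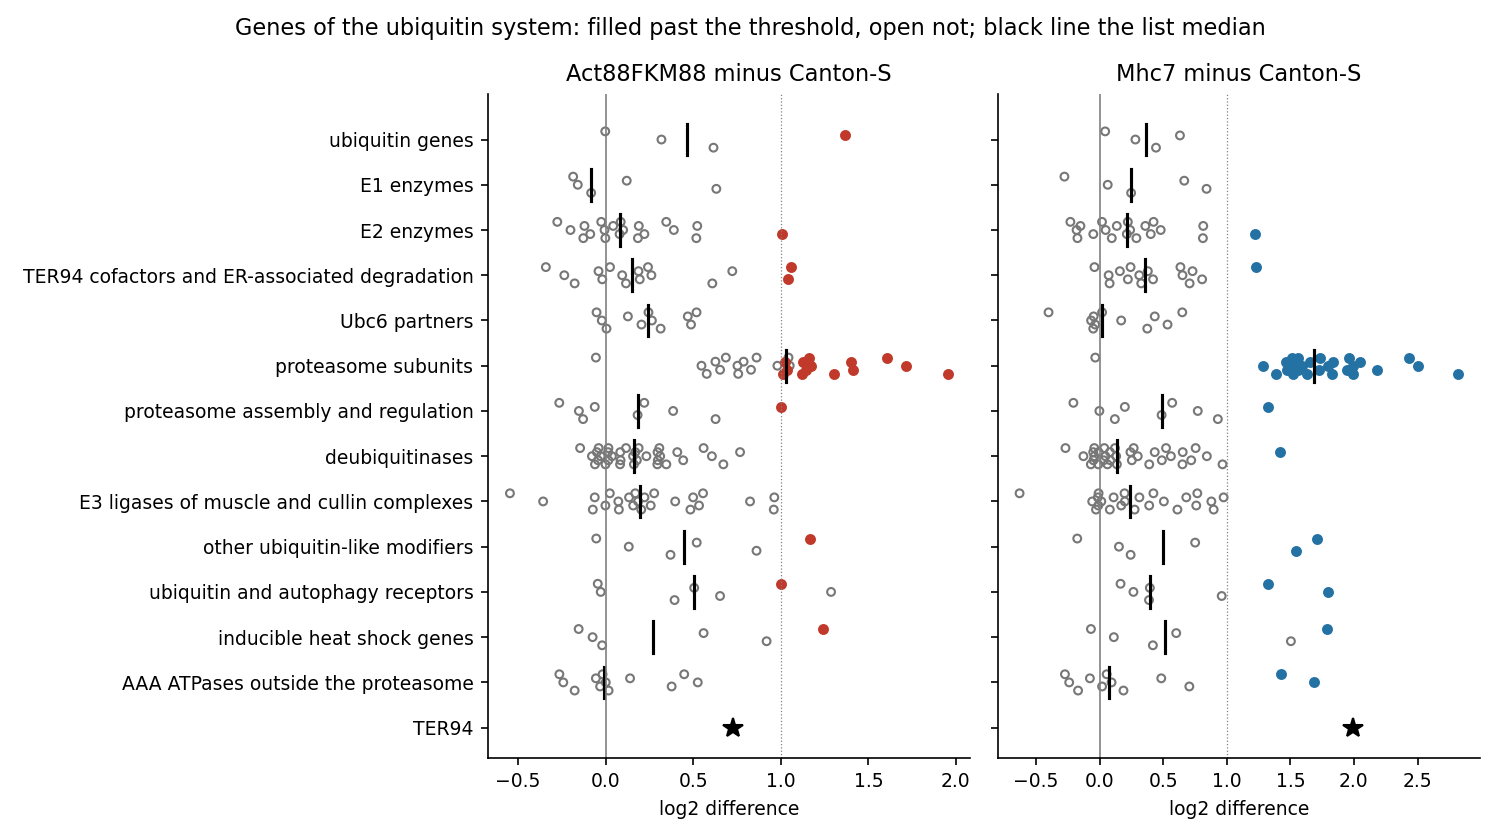
Log2 differences of the measured genes of each pathway list in Act88FKM88 and in Mhc7 against Canton-S, with 1 point per gene. Filled points passed the threshold, open points did not, black lines are list medians, the dotted line marks 2-fold and the star is TER94. Proteasome subunits lie highest, with medians of 1.03 and 1.69, and Ubc6 is the 1 filled point among the E2 enzymes.

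Rad23, a shuttle that carries ubiquitinated proteins to the proteasome, rose by 1.00 ± 0.20 in Act88FKM88 (limma adjusted p = 0.0292) and by 1.32 ± 0.20 in Mhc7 (adjusted p = 0.00512), the 1 of 9 assembly and regulation genes that passed. Its Act88FKM88 call ended on leaving out either of Canton-S 1 and 2 or Act88FKM88 3, in all 3 rescalings, with SAM and with array weights, and its Mhc7 call with centring. Of 34 measured genes on the deubiquitinase list 0 rose in Act88FKM88, where 1.48% of all probe sets did, and 1 in Mhc7, where 2.40% did. That gene was Usp14, which trims ubiquitin from proteins at the proteasome (1.42 ± 0.33, limma adjusted p = 0.0423). Usp14 no longer passed when either of Canton-S 1 and 2 or when Mhc7 3 was left out, with quantile normalization repeated and with the trend removed, while 2 genes of the list passed without Mhc7 1 or without Mhc7 2. At 0.77 ± 0.15, Usp47 was nearest in Act88FKM88 (limma adjusted p = 0.0295), followed by eIF3f1 at 0.61 ± 0.12 (adjusted p = 0.0344). Of 24 measured E3 ligase genes none passed against Canton-S. The F-box gene ago had 0.96 ± 0.15 in Act88FKM88 (limma adjusted p = 0.0107), under 2-fold, and passed without Canton-S 2, Act88FKM88 1 or Act88FKM88 3. In Mhc7 ago had 0.90 ± 0.15 (limma adjusted p = 0.00895). Roc1a, the RING subunit of cullin ligases, had 0.82 ± 0.12 in Act88FKM88 (limma adjusted p = 0.0069) and 0.97 ± 0.12 in Mhc7 (adjusted p = 0.0022), both under 2-fold, and in Mhc7 it passed without Canton-S 2 or Mhc7 1. Directly between the mutants Cul2, a cullin gene, was lower in Act88FKM88 (-1.16 ± 0.26, limma adjusted p = 0.0573), a call that ended at an adjusted p of 0.05 and without Act88FKM88 1, Act88FKM88 3 or any 1 Mhc7 array.

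Other modifiers and receptors work beside ubiquitin. Among 6 ubiquitin-like modifier genes 1 rose in Act88FKM88 and 2 in Mhc7: Sumo rose in Mhc7 (1.71 ± 0.22, limma adjusted p = 0.00275), and Atg8a, which coats autophagosomes, rose by 1.16 ± 0.21 in Act88FKM88 (adjusted p = 0.0199) and 1.55 ± 0.21 in Mhc7 (adjusted p = 0.00309). The Act88FKM88 call of Atg8a was lost without Canton-S 1, in all 3 rescalings and with SAM, and its Mhc7 call with quantile normalization repeated. The receptor gene ref(2)P, the fly homologue of p62, rose by 1.80 ± 0.44 in Mhc7 (limma adjusted p = 0.0548). Leaving out either of Canton-S 1 and 2 or of Mhc7 1 and 3 ended this call, as did quantile normalization repeated and removal of the trend. Of 7 receptor genes 1 rose in Act88FKM88 and 2 in Mhc7, and Rad23 is among them in both.

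TER94 was set beside 12 other AAA ATPase genes outside the proteasome. In Mhc7 2 of these rose, the mitochondrial protease genes Afg3l2 (1.68 ± 0.13, limma adjusted p = 0.000453) and Lon (1.42 ± 0.25, adjusted p = 0.0108), and in Act88FKM88 none did. There the smallest p were those of Afg3l2 (0.53 ± 0.13, limma adjusted p = 0.0807) and Vps4, an endosomal sorting gene (0.45 ± 0.15, adjusted p = 0.187). The list medians were -0.01 in Act88FKM88 and 0.07 in Mhc7. Both were lower in Act88FKM88 than in Mhc7 by the direct test, Afg3l2 at -1.16 ± 0.13 (limma adjusted p = 0.00335) and Lon at -1.05 ± 0.25 (adjusted p = 0.0668). Afg3l2 lost both calls with quantile normalization repeated. Lon lost the call between the mutants in 7 of the 9 fits that left out an array, all but those without Act88FKM88 2 or Mhc7 1. That call also ended at an adjusted p of 0.05, with quantile normalization repeated, with the trend removed and with the 6 arrays of both mutants alone.

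Ubi-p63E is a heat-inducible gene, and 6 of 19 listed inducible heat shock genes were measured beside it. Hsp70Aa and Hsp70Ba were not among them, because no probe set names either gene alone. Of the 6 genes 1 rose in Act88FKM88, where 1.48% of all probe sets did, and 1 in Mhc7, where 2.40% did. In Act88FKM88 stv, a co-chaperone gene, rose by 1.24 ± 0.32 (limma adjusted p = 0.0811), and in Mhc7 DnaJ-1 rose by 1.79 ± 0.43 (adjusted p = 0.0512). The stv call held in 2 of the 9 fits that left out an array, those without Act88FKM88 3 or Mhc7 2. DnaJ-1 kept its call without Canton-S 2 or any 1 Act88FKM88 array. Both calls ended with quantile normalization repeated and with the trend removed, and that of stv also with centring, with SAM, with the 6 arrays of Act88FKM88 and Canton-S alone and with the replicate number as a block. The list medians were 0.27 and 0.51.

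Facts of the whole set that touch these results are as follows. Act88F, the mutated gene, fell by 2.80 in Act88FKM88 (-2.80 ± 0.17, limma adjusted p = 8.25e-05), from 14.10 to 14.36 in Canton-S to 11.03 to 11.79, and had -0.10 ± 0.17 in Mhc7. Mhc was not analysed here. The flight muscle markers averaged 11.4 to 11.83 in the Canton-S arrays (fln at 13.83). With Act88F among them, 17 markers summed to 16.50 to 16.86 log2 units in Canton-S, 16.68 to 16.92 in Act88FKM88 and 16.94 to 17.05 in Mhc7. The 3 Mhc7 arrays were highest, but the fall of Act88F itself lowers the Act88FKM88 sums. Single muscle markers moved both ways. In Act88FKM88 2 of the 17 rose and 1, Act88F, fell, beside 1.48% and 0.330% of all probe sets. Their values ran from -2.80 to 2.11 (median 0.31). In Mhc7 1 rose, beside 2.40%, and 0 fell, with values from -1.52 to 2.02 (median 0.31). Between the mutants the values ran from -2.70 to 2.58. Summed levels overlapped in all 3 genotypes for markers of fat body, gut, neurons and glia, and tracheae. Of 12 fat body markers 1 rose in Act88FKM88, beside 1.48% of all probe sets, and 0 in Mhc7, beside 2.40% (medians 0.11 and 0.46). No gut, neuron and glia, or tracheal marker passed in either mutant. In Act88FKM88 their values reached 1.27 for gut and 1.30 for neurons and glia. The sum for hemocyte markers was lower in Mhc7 (6.87 to 6.97 against 7.05 to 7.21 in Canton-S). So was the sum for testis and accessory gland (6.89 to 7.01 against 7.35 to 8.24). Of 12 hemocyte markers 0 passed in Mhc7 (median -0.08). Their arrays lay wholly below Canton-S for 3 and wholly above for 1, beside 10.3% and 11.8% of all probe sets. Of those 17 testis and accessory gland markers 1 fell in Mhc7, where 0.389% of all probe sets did. Their median was -0.07 and their lowest value -3.74. Hemocyte markers such as srp (2.69 in Canton-S), lz (2.45) and He (2.74) lay under the array medians. The part of these markers in the results was not tested. Canton-S 2, highest of its genotype for Ubi-p5E and Ubi-p63E, also had the largest differences between 3' and 5' control probe sets (2.55 for GAPDH and 2.96 for eIF4a, against 1.68 to 2.13 and 2.12 to 2.58). Without it Ubi-p5E was at 1.602 in Act88FKM88 and 0.28 in Mhc7, and Ubi-p63E at 0.26 and 0.89. Mhc7 2 and Mhc7 3 had the smallest 3' to 5' differences of all arrays (1.781 and 1.675 for GAPDH, 2.12 and 2.15 for eIF4a). These differences therefore also vary with genotype, and their part in the Mhc7 comparisons was not tested.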

How the data were processed

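RNA was labelled from 6 µg of total RNA per array, per the labels' protocols. The authors deposited 1 log2 value per probe set and array, made by RMA per the labels. Its version, and whether the 9 arrays were normalized together, are not given in the sources used here. The range of the values fits a log2 scale. Arrays have no read depth, so precision is limited by how many there are. After 183 control probe sets were left out, 18769 were tested with no filter. The platform annotation names 1 gene for 13647 of them. A mean per genotype was fitted with limma 3.58.1 in R 4.3.3, for 3 contrasts, with a moderated variance and Benjamini-Hochberg adjustment. The code was tested on simulated data. SAM, the test the study names, was written anew and run with 20 permutations as an alternative. In lists, the probe set with the highest mean stands for a gene.

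Named genes are the 4 members, Act88F, the remaining ubiquitin genes, per list and mutant against Canton-S up to 4 members past the threshold with the smallest p (where none passed, the 2 of smallest p), and the 3 closest genes per member. Ufd4, Rpt4, Cul2, Rpt3R, the values of Afg3l2 and Lon between the mutants, markers, and members named for not being measured stand outside that rule and were chosen after their values were seen. The members and lists were chosen with earlier results of these data known, so no list is independent support. Marker lists follow textbook genes. No sequences or coordinates are printed.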

Additional observations from a re-analysis of the deposited data

How the results depend on the processing

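Rescaling changed most. The count of member probe sets higher than in Canton-S became 0 in Act88FKM88 and 1 in Mhc7 with quantile normalization repeated, with intensity trends removed and with centring on genes of the cytosolic ribosome, against 2 and 2. In that order, Ubi-p5E in Act88FKM88 was 0.766, 0.996 and 0.906, Ubc6 in Act88FKM88 0.631, 0.661 and 0.551, Ubc6 in Mhc7 0.547, 0.717 and 0.803, Ubi-p5E in Mhc7 -0.729, -0.461 and -0.373, and the probe set shared with CG11700 in Mhc7 -0.176, -0.158 and -0.0517. With quantile normalization repeated, TER94 between the mutants was -0.965, so 0 members were lower in Act88FKM88, and Ubc6 turned to 0.0841. Ubi-p63E in Act88FKM88 turned to 0.0261 with array weights, and the dim Ubc6 probe set to -0.289 with centring. The cause was not tested. SAM, the stricter adjusted p of 0.05, fits on the 6 arrays of a pair, the trended variance prior and removal of dim probe sets changed no call of the 4 genes. That filter, at the 40th percentile, removed the dim Ubc6 probe set.

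Without 1 array, values in Act88FKM88 against Canton-S ran from 1.233 to 1.602 for Ubi-p5E, -0.263 to 0.259 for Ubi-p63E, 0.549 to 0.855 for TER94 and 0.881 to 1.115 for Ubc6, and 1 to 2 members rose. In Mhc7 they ran from -0.0883 to 0.281, 0.371 to 0.892, 1.905 to 2.082 and 1.043 to 1.413. The dim Ubc6 probe set ran from -0.106 to 0.0261. Between the mutants they ran from 1.194 to 1.432, -0.777 to -0.509, -1.442 to -1.137 and -0.403 to -0.0334, and the shared probe set from 0.838 to 1.091, past the threshold without Act88FKM88 3 or Mhc7 3. Over all probe sets, 340 passed in Act88FKM88 (218 without Canton-S 1, 176 with SAM), 524 in Mhc7 (266 with quantile normalization repeated, 291 with trends removed) and 336 between the mutants (192 without Act88FKM88 1, 213 without Mhc7 3). Higher calls in Act88FKM88 were 278 of 340, 129 of 253 with quantile normalization repeated, 131 of 232 with trends removed and 140 of 463 with centring. In Mhc7 they were 451 of 524, then 144 of 266, 183 of 291 and 214 of 497.

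Deviations of same-numbered arrays from their genotype means were mixed (r from -0.316 to 0.426, highest for Act88FKM88 2 with Mhc7 2). The numbers were not taken as pairs. With the replicate number as a block, Ubi-p5E in Act88FKM88 stayed at 1.36 and TER94 in Mhc7 at 1.99, no call of the 4 genes changed, and 345, 532 and 340 probe sets passed in the 3 comparisons.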
